A study of Mus musculus with 12 samples.

Results

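The Fc receptor genes examined here are 5 mouse genes: Fcgr1, Fcgr3, Fcgr2b, Fcer1g and Fcrls. Their rows were chosen by gene symbol, as those whose platform annotation names exactly 1 gene and that gene is a member. This gave 4 of 23332 rows at gene level and 52 of 229581 probe sets at exon level. A probe set is a small group of array probes within 1 stretch of a transcript, mostly an exon. Fcgr2b has no gene-level row of its own, since the gene-level row that could hold it is named for Fcgr2b and Fcgr3 together, and it was therefore read at exon level only.

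The arrays are 6 Affymetrix Mouse Exon 1.0 ST arrays of cerebellar total RNA, from 3 wild-type and 3 NMF291–/– mice, all female and 30 days old (P30). The mutants carry a deletion of 5 nucleotides in Rnu2-8, a gene for U2 snRNA, which pairs with the branch site of introns during splicing. No other allele or agent is named in the labels, and no row is named for the mutated gene, whose level was not analysed here. The arrays hold RNA of the whole cerebellum.

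Fc gamma receptors bind the constant part of immunoglobulin G and tie antibody to phagocytosis and cell activation. The activating receptors depend on the common gamma chain, Fcer1g, whose ITAM (an activation motif with paired tyrosines) recruits the kinase Syk. The receptor Fcgr2b carries the opposing ITIM and recruits the lipid phosphatase Inpp5d. In brain tissue these receptors are found mainly on microglia, the resident macrophages. Fcrls is an Fc receptor-like gene with a scavenger receptor domain and is known in the mouse brain as a microglial gene.

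The promoters of Fcrls, Fcgr3 and Fcgr1 are shown because these members, which differed in their change, each hold a match to the PU box, the core of the site bound by the myeloid factor PU.1. The sequences are from RefSeq, build GRCm38.p6, read 5′ to 3′ along the gene's own strand, and each gives the 250 bases before the annotated start. Fcrls lies on the minus strand of chr3:87263525-87263774, Fcgr3 on the minus strand of chr1:171059404-171059653 and Fcgr1 on the minus strand of chr3:96293970-96294219; the array annotation itself uses another build, mm8. Capitals mark matches to the PU box GAGGAA on either strand and, in Fcgr1, to the STAT site TTCNNNGAA as well.
Fcrls: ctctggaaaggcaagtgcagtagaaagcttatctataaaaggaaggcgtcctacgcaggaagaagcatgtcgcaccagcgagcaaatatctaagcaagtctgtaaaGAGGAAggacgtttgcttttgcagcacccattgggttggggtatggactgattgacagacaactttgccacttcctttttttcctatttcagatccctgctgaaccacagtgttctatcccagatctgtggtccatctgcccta
Fcgr3: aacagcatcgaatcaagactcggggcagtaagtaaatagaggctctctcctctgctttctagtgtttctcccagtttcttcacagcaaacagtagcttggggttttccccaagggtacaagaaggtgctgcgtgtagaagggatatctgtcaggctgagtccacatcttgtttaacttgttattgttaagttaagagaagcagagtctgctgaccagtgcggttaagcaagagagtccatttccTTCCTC
Fcgr1: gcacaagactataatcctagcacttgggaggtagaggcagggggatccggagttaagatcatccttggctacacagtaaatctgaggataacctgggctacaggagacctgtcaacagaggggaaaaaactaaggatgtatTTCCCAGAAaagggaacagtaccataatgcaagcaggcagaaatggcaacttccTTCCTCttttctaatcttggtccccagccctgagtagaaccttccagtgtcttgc
The PU box match begins 144 bases before the start in Fcrls, 6 bases before it in Fcgr3 and 55 bases before it in Fcgr1. A 2nd annotated start of Fcgr3 lies close by and holds the same match. The STAT site match of Fcgr1 begins 109 bases before the start and does not overlap its PU box. The windows of Fcer1g and Fcgr2b, searched like all others over these bases and a short stretch after the start, hold neither motif, and no member's window holds the interferon response element GAAANNGAA. Among 32851 promoter windows searched alike, 28.3% hold the PU box, 8.3% the STAT site and 8.56% the interferon response element, both strands counted, so a match to the PU box alone is common.

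Array medians at gene level were 8.00 to 8.03 (log2) in the wild-type mice and 8.05 to 8.09 in the mutants. Of 12 cerebellar neuron markers 10 had a row, with mean levels of 12.27 to 12.33 in wild-type mice and 12.18 to 12.27 in mutants and no single value below 9.92. Arrays yield no counts, and 3 arrays a genotype limit the precision of every comparison.

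The comparison asked whether the receptors, their shared signalling chain and the receptor-like gene differ in level between the mutant and the wild-type cerebellum. At gene level Fcrls and Fcgr3 rose in the mutants. Fcrls was 2.98-fold and Fcgr3 1.61-fold their wild-type level. Fcer1g was at 2.19-fold but narrowly missed the threshold, and Fcgr1 was at 1.11-fold and did not pass. The test was limma with Benjamini-Hochberg adjustment over all 23332 rows and a threshold of 0.05. Among all rows 3.94% rose and 1.81% fell (920 and 422), against 2 and 0 of the 4 Fc receptor rows. That split depends on the scaling: it was 680 and 595 after quantile normalization and 529 and 600 after median centring. On the values as deposited, every mutant array lay above every wild-type array in all 4, against 18.9% of rows. Array medians were also higher in the mutants, and the separation was not recounted after rescaling. A change of 0.5 or more was seen in 3, against 2.85%. At an unadjusted p under 0.05 there were 3 higher in the mutants, against 15.2% of rows. In bulk tissue, more cells of a type and more RNA per cell cannot be told apart.

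**Figure D1:**
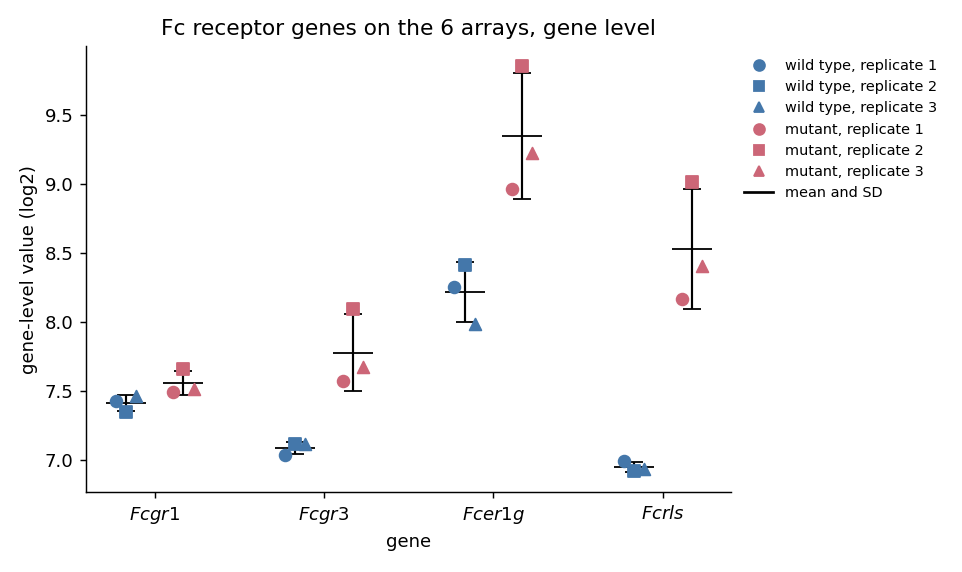
Gene-level values (log2, vertical axis) of the 4 Fc receptor genes with a row of their own, on the 3 wild-type arrays (blue) and the 3 mutant arrays (red), with the mean and SD of each genotype. On these values as deposited, every mutant array lies above every wild-type array of the same gene, narrowly in Fcgr1. Mutant replicate 2 is the highest throughout. Heights of different genes are not comparable.

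Fcgr1 encodes the high-affinity receptor for immunoglobulin G. It was at 7.42, 7.35 and 7.46 (log2) on the wild-type arrays and at 7.49, 7.66 and 7.52 on the mutant arrays. The genotypes did not overlap, but the lowest mutant array lay close to the highest wild-type array. The gap ran from 7.46 in wild-type replicate 3 to 7.49 in mutant replicate 1. It was smaller than that between the medians of these arrays, 8.00 and 8.055. The change of 0.14 ± 0.06 (SE, n = 3 a genotype) had a 95% interval of -0.01 to 0.30 and a limma adjusted p of 0.237. The upper bound lay below the fitted changes of the other 3 genes.

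Fcgr3 encodes a low-affinity activating receptor. Its values were 7.04, 7.12 and 7.11 in the wild-type mice and 7.57, 8.10 and 7.67 in the mutants. The wild-type arrays were close together and all mutant arrays lay above them, replicate 2 farthest. The change was 0.69 ± 0.14 (SE; limma adjusted p = 0.0479), just past the threshold. Without mutant replicate 2 it was 0.53 (adjusted p = 0.0484). The call was lost without wild-type replicate 1, 2 or 3 (adjusted p = 0.109, 0.123 and 0.127) or mutant replicate 1 or 3 (adjusted p = 0.0835 and 0.109), and after median centring (adjusted p = 0.0524).

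Fcer1g, the gamma chain through which the activating receptors signal, was at 8.25, 8.41 and 7.98 in the wild-type mice and at 8.96, 9.85 and 9.22 in the mutants. The groups were well apart, with a wider spread within each than in Fcgr3. Its change of 1.13 ± 0.24 (SE) had a 95% interval of 0.54 to 1.72 and a limma adjusted p of 0.0544. It passed when rows below the median level were left out (adjusted p = 0.0120), which left it as the only member tested, and with trend and robust settings (adjusted p = 0.0342).

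Fcrls had the largest change of the 4. It was at 6.99, 6.92 and 6.93 in the wild-type mice and at 8.17, 9.01 and 8.40 in the mutants. The lowest mutant array was thus more than a doubling above the highest wild-type array. The change was 1.58 ± 0.21 (SE; 95% interval 1.06 to 2.09; limma adjusted p = 0.0200). It was 1.33 without mutant replicate 2 (adjusted p = 0.0222). The call was lost without wild-type replicate 1, 2 or 3 (adjusted p = 0.0576, 0.0768 and 0.0752) or mutant replicate 1 or 3 (adjusted p = 0.0525 and 0.0693), while the change stayed between 1.56 and 1.76.

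The gene-level changes were also compared between members. Taken within each array, the change of Fcer1g minus that of Fcrls was -0.45, that of Fcgr3 minus Fcrls was -0.89 and that of Fcgr1 minus Fcrls was -1.43 (log2). In all 6 pairs of the 4 genes the difference on every mutant array lay outside the wild-type range, with Fcgr1 the smaller and Fcrls the larger change wherever they took part. The exact permutation test, two-sided, gave p = 0.1 for each of the 6 pairs, also after Benjamini-Hochberg adjustment, which is the smallest p that 3 against 3 arrays allow. Such changes are also scaled by how strongly each gene's probes respond.

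At exon level the probe sets showed where in each gene's set of measurements the rise was seen. Of the 52 probe sets 7 rose, 5 of Fcrls and 2 of Fcer1g, and none fell (limma, adjusted over 229581 probe sets). Of all probe sets 0.603% rose and 0.402% fell. With any 1 of the 6 arrays left out, 0 of the 52 passed, as did 0 of all 229581, beside 31235 to 39930 in the whole table at an unadjusted p under 0.05. Every mutant array lay above every wild-type array in 28 of the 52, against 14% of all probe sets. In 2 every mutant array lay below, a share that was not counted over all probe sets. A change of 0.5 or more was seen in 30, against 3.36% of all probe sets, and 31 were higher at an unadjusted p under 0.05, against 10.1%.

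**Figure D2:**
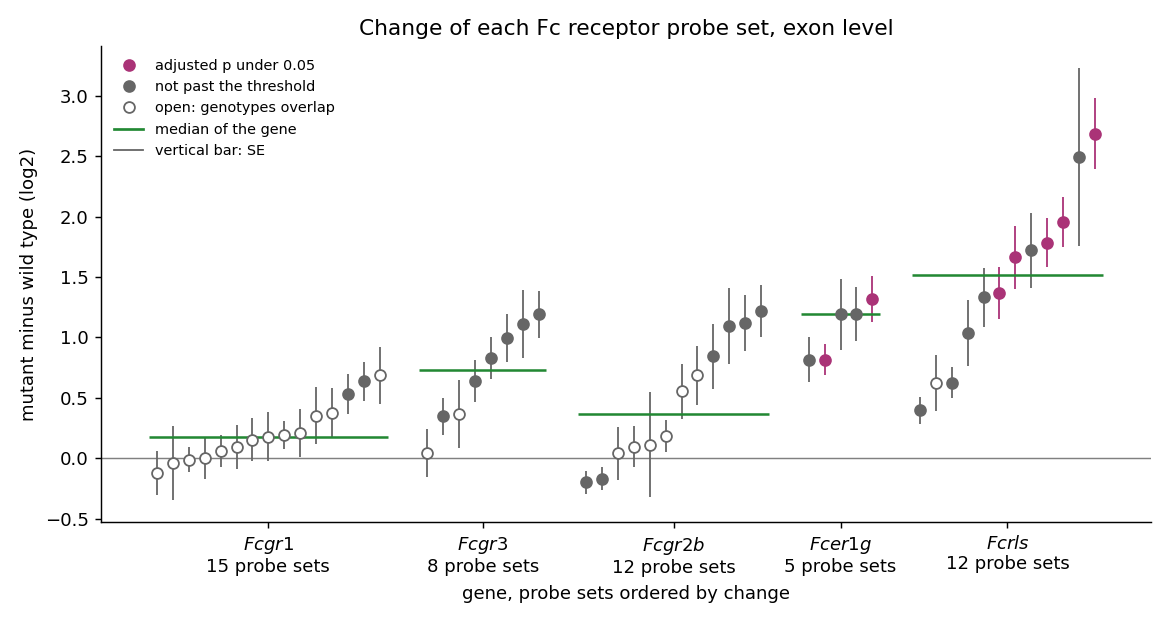
Change of each of the 52 Fc receptor probe sets (mutant minus wild type, log2, vertical axis), grouped by gene and ordered by size, with the SE as a bar; open circles are probe sets whose genotypes overlap, and green lines are each gene's median. All 12 Fcrls and all 5 Fcer1g probe sets lie above 0, whereas Fcgr2b divides into probe sets near 0 and probe sets above 0.5.

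All 12 Fcrls probe sets had a positive change, from 0.40 to 2.69 with a median of 1.51. In 11 of them the genotypes did not overlap. The largest change was in probe set 5209535, at 6.62, 6.37 and 6.30 in the wild-type mice and 8.45, 9.68 and 9.23 in the mutants (2.69 ± 0.30, SE; limma adjusted p = 0.0252). This is a 6.44-fold difference. The smallest p was that of probe set 4743418, which rose by 1.95 ± 0.21 (limma adjusted p = 0.0240). The smallest change was that of probe set 5002217, at 11.12, 10.86 and 11.08 in the wild-type mice and 11.29, 11.57 and 11.39 in the mutants, a difference of 0.40 ± 0.11 that did not pass (limma adjusted p = 0.157). Probe sets at both ends of this range thus separated the genotypes, and they differed in how far.

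All 5 Fcer1g probe sets had non-overlapping genotypes, with changes of 0.81 to 1.32. Probe set 4831783 was at 8.49, 8.42 and 8.15 in the wild-type mice and 9.46, 10.08 and 9.47 in the mutants, which was both the largest change and the smallest p of the gene (1.32 ± 0.19, SE; limma adjusted p = 0.0406). The other call was probe set 4896021, which rose by 0.81 ± 0.13 (limma adjusted p = 0.0480). The smallest change, 0.81 ± 0.19 in probe set 4737930, did not pass (limma adjusted p = 0.0996). The gamma chain thus rose in 2 probe sets while its gene-level row missed the threshold.

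Of the 8 Fcgr3 probe sets 6 had non-overlapping genotypes, all with the mutant above, and none passed. Probe set 5084485 was at 8.69, 8.61 and 8.60 in the wild-type mice and 9.51, 10.28 and 9.68 in the mutants (1.19 ± 0.20, SE; limma adjusted p = 0.0523), the largest change and the smallest p of the gene. The smallest change, 0.04 ± 0.20, was that of probe set 4724890, whose mean lies in the lowest 25% of all probe sets and whose genotypes overlap.

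Fcgr2b, the inhibitory receptor, was split. In 6 of its 12 probe sets the change was 0.55 to 1.22 and in the other 6 it was -0.20 to 0.19. None passed. The largest change and the smallest p were those of probe set 4527636, at 7.21, 7.13 and 6.85 in the wild-type mice and 7.86, 8.70 and 8.30 in the mutants (1.22 ± 0.22, SE; limma adjusted p = 0.0610). The smallest was that of probe set 4720430, at 11.52, 11.66 and 11.53 in the wild-type mice and 11.24, 11.40 and 11.48 in the mutants (-0.20 ± 0.10; limma adjusted p = 0.357). In the latter and in probe set 4408866 (-0.17; limma adjusted p = 0.421) every mutant array lay below every wild-type array. Of the 6 probe sets with small changes 3 had mean levels in the lowest 25% of the table, as did 1 of the other 6.

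Fcgr2b and Fcgr3 are near-identical in the part that binds antibody, and 5 rows of the 2 tables are annotated to both, so these cannot be assigned to either. All 5 had non-overlapping genotypes with the mutant above. The shared gene-level row was at 7.03, 6.84 and 6.83 in the wild-type mice and 7.35, 7.77 and 7.35 in the mutants (0.59 ± 0.13, SE; limma adjusted p = 0.0603). The 4 shared probe sets changed by 0.69 to 1.23, none past the threshold. Probes named for a single one of these genes may still bind RNA of the other, which was not tested.

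Of the 15 Fcgr1 probe sets 12 had a positive change, the median was 0.18 and none passed. In 13 the genotypes overlapped. The largest change was that of probe set 4873807, at 7.21, 6.63 and 6.69 in the wild-type mice and 7.17, 7.96 and 7.46 in the mutants (0.69 ± 0.24, SE; limma adjusted p = 0.217), where mutant replicate 1 lay within the wild-type range. The smallest p was that of probe set 5330512, at 8.00, 7.59 and 7.74 against 8.15, 8.66 and 8.42 (0.63 ± 0.16; limma adjusted p = 0.124). The smallest change was -0.12 ± 0.18, in probe set 4366455. Levels were low: 7 of the 15 lay in the lowest 25% of the table, against 2 of 8 for Fcgr3, 4 of 12 for Fcgr2b, 3 of 12 for Fcrls and none of 5 for Fcer1g.

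A per-array summary, the median over a gene's probe sets on each array, can be taken for all 5 genes. The median probe set of Fcgr2b was at 7.18, 6.94 and 6.84 in the wild-type mice and at 7.51, 8.25 and 7.49 in the mutants, a difference of 0.77 with no overlap. The same median differed by 0.84 in Fcgr3, 0.82 in Fcer1g, 1.75 in Fcrls and 0.44 in Fcgr1, and only in Fcgr1 did the genotypes overlap. The exact permutation test gave p = 0.1 for each of the 4 that did not overlap, the smallest it can give, and p = 0.2 for Fcgr1. Between Fcgr3, Fcgr2b and Fcer1g these differences were within 0.08 of each other. That closeness depends on the summary, since a per-array median can fall on different probe sets on different arrays. The median of the probe sets' own changes was 0.73 in Fcgr3, 0.37 in Fcgr2b and 1.19 in Fcer1g. It was 1.51 in Fcrls and 0.18 in Fcgr1. In the per-array summary, 4 of the 10 pairs of genes separated the genotypes by the difference between genes, all of them with Fcrls. Each of these 4 had an exact permutation p of 0.1, and 0.25 after adjustment over the 10 pairs.

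Whether the probe sets of a gene changed unequally was tested with the splicing index, the value of a probe set minus the median of its gene on the same array. None of the 52 passed by limma, nor did any of 207513 probe sets in the table (0%). At an unadjusted p under 0.05 there were 19 of 52, against 8.99% of the table. The index of probe set 5002217 of Fcrls fell by 1.36 ± 0.18 (SE; limma adjusted p = 0.244) and that of probe set 5209535 rose by 0.93 ± 0.13 (limma adjusted p = 0.244), neither past the threshold. The other limma test of exon usage, diffSplice, also called none of the 52, against 0.961% of its table, and 13 at an unadjusted p under 0.05, against 7.76%. Neither test can tell unequal exon usage from probe sets that respond unequally to the same change.

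The rest of the antibody pathway was read from lists of genes in the gene-level table. Together the lists of other Fc receptors, ligands, partner receptors, kinases, adaptors, ITIM phosphatases, phagocytic genes and interferon-gamma response genes hold 126 genes, of which 97 were measured. Of these 3 rose and none fell, against 3.94% and 1.81% of all rows, so their share is no higher than that of the table as a whole. The 3 were Tyrobp, Dok3 and Inpp5d. After quantile normalization or median centring the same 3 rose and Elmo1 fell. Tyrobp is the other ITAM adaptor of microglia and was 2.79-fold its wild-type level (1.48 ± 0.20, log2, SE; limma adjusted p = 0.0209). Without mutant replicate 2, 1 of the 97 passed, Tyrobp, and without any 1 of the other 5 arrays 0 passed.

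**Figure D3:**
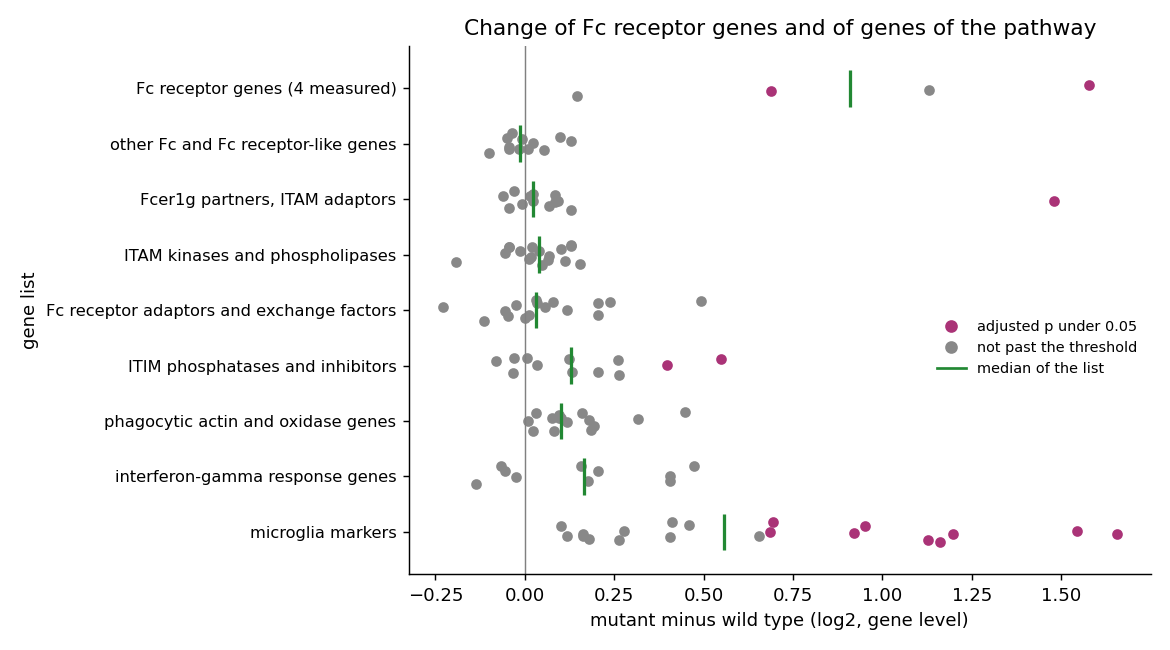
Change of each measured gene (mutant minus wild type, log2, gene level, horizontal axis) in the Fc receptor genes, 7 of the pathway lists (the ligands, with 2 genes measured, are not drawn) and the microglia markers; green bars are list medians. Tyrobp at 1.48 stands alone in its list, and the kinase and adaptor lists centre near 0.

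The 2 inhibitory-side genes that rose were the adaptor Dok3, by 0.55 ± 0.09, and the SHIP-1 phosphatase Inpp5d, by 0.40 ± 0.07 (limma adjusted p = 0.0293 and 0.0349). Inpp5d is the phosphatase that the ITIM of Fcgr2b recruits. They belong to a list of 12 measured ITIM phosphatases and inhibitors with a median change of 0.13, against 0.02 over all rows of the table. In the same list the phosphatase Ptpn6 was at 0.26 and the Csk-binding adaptor Pag1 at 0.20, and neither passed (limma adjusted p = 0.0720 and 0.0548). Both calls were lost without any 1 of the 6 arrays.

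None of 17 ITAM kinases and phospholipases passed, with a median change of 0.04, which turned to -0.01 after median centring. Syk, the kinase that binds the phosphorylated ITAM, was at 6.36 ± 0.05 in the wild-type mice and 6.49 ± 0.03 in the mutants (SD, n = 3; change 0.13, limma adjusted p = 0.173). Pik3cg was at 0.16, Prkcd at 0.11 and Pik3r1 at -0.19, none past the threshold. None of 16 adaptors and exchange factors passed either, with a median of 0.03, which turned to -0.02 after median centring. Among them Fyb was at 0.49, Blnk at 0.20, Vav1 at 0.20 and the exchange factor partner Elmo1 at -0.23 (limma adjusted p = 0.0623 for Elmo1). Of 15 phagocytic actin and oxidase genes none passed although all 15 had a positive change, 13 after quantile normalization and 12 after median centring, with a median of 0.10. Over all rows 12877 of 23332 had a positive change, with a median of 0.02. The Wave complex gene Nckap1l was at 0.45, Arpc5 at 0.18, Rac2 at 0.19 and the oxidase subunit Ncf4 at 0.16.

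None of 12 other Fc and Fc receptor-like genes passed, and their median change was -0.01. Fcgr4, the remaining activating receptor and the nearest relative of the members, was at 5.41 ± 0.04 in the wild-type mice and 5.54 ± 0.12 in the mutants (SD, n = 3), with overlapping groups (limma adjusted p = 0.337). The neonatal receptor Fcgrt, which recycles immunoglobulin G, was at 9.84 ± 0.09 and 9.94 ± 0.12 (limma adjusted p = 0.543). Fcrl1 at -0.10 and Fcrla at -0.05, both of B cells, did not pass. Besides Tyrobp, 12 partner receptors and ITAM adaptors of other cells were measured and none passed, among them Oscar at 0.13, Clec4d at 0.09 and the T cell chain Cd247 at -0.06.

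Of 12 ligands only Crp and Apcs, pentraxins that bind Fc receptors, had a row of their own, at 0.05 and 0.01 with overlapping groups; the immunoglobulin genes were not analysed here. None of 10 interferon-gamma response genes passed, with a median change of 0.17. Irf8 was at 0.40, the chemokine gene Cxcl10 at 0.47, Gbp3 at 0.21 and Ifngr2 at -0.14, with limma adjusted p-values from 0.0949 to 0.228. Irf8 is also in the list of microglia markers.

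Microglia markers moved with the Fc receptor genes. Of 20 markers measured of 21 listed, none of them a member, 9 rose and none fell, all 20 had a positive change and the median was 0.56. Over all rows 3.94% rose and 12877 of 23332 had a positive change. Among those that rose were Ly86 at 1.66, C1qb at 1.55, Trem2 at 0.95 and Cd53 at 0.92. The other 11 did not pass, among them P2ry12 at 0.26, Siglech at 0.16, Tmem119 at 0.12 and Sall1 at 0.10. The mean level of the 20 markers was 7.84 to 7.89 in wild-type mice and 8.34, 8.78 and 8.44 in mutants. Mutant replicate 2 was thus the highest here as well. The number that rose was 1 without wild-type replicate 1 and 0 on leaving out wild-type replicate 2 or 3. It was 1 on leaving out mutant replicate 1, 8 on leaving out mutant replicate 2 and 0 on leaving out mutant replicate 3. Over all rows the number that rose was 920 with every array. It was 356, 114, 110, 61, 113 and 50 with these arrays left out in the same order. The part of the microglia markers' rise in that of the Fc receptor genes was not tested.

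**Figure D4:**
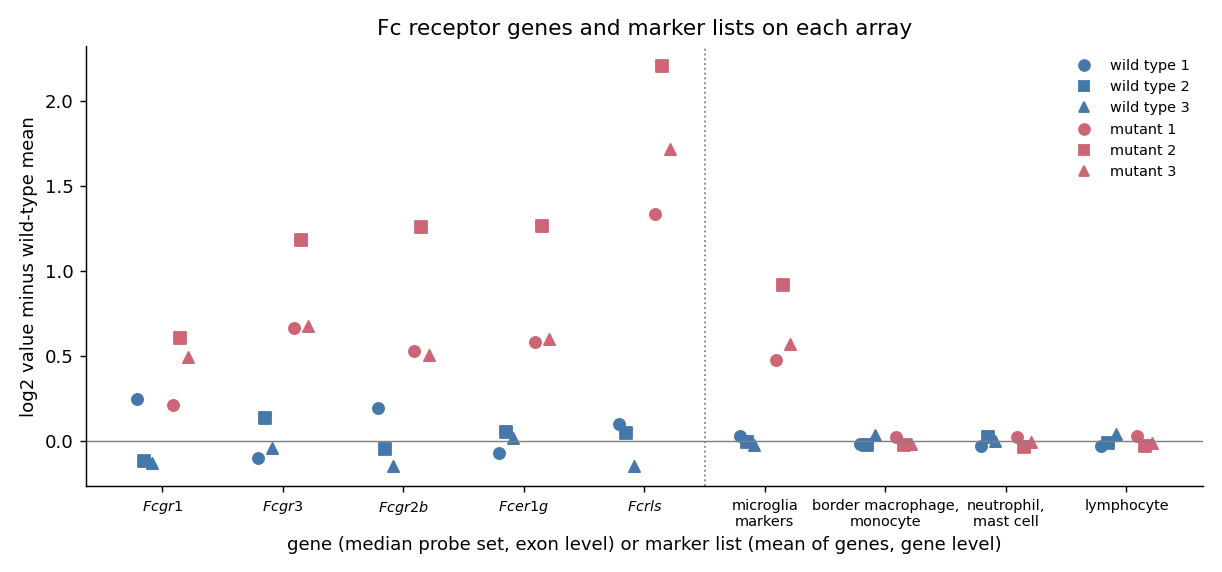
Values on each array relative to the wild-type mean (log2, vertical axis), for the median probe set of each Fc receptor gene at exon level (left of the dotted line) and for the mean of 4 marker lists at gene level (right). Mutant replicate 2 (square) is highest in all 5 genes and in the microglia list. The 3 lists of other blood and border cells, mostly of rows below the median level, stay near 0 on all 6 arrays.

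Other cells known to carry Fc receptors were read in the same way. None of 12 border macrophage and monocyte markers passed, and their mean level was 6.32 to 6.38 in the wild-type mice and 6.32 to 6.37 in the mutants. None of 15 neutrophil and mast cell markers passed (mean level 6.41 to 6.46 and 6.40 to 6.46), although the neutrophil receptor Csf3r was at 0.53 (limma adjusted p = 0.0739). None of 13 lymphocyte markers passed (6.24 to 6.31 and 6.24 to 6.30). On an array no row is at 0, and the lowest single values of these lists were 4.63, 4.05 and 4.29. The median of the gene-level values was 8.04. Leaving out rows below it kept 1 of the 12, 1 of the 15 and 0 of the 13 markers. A change in rows this low could be missed. Of 9 astrocyte markers 1 rose, Gfap, by 1.48 ± 0.22 (limma adjusted p = 0.0272), of 10 cerebellar neuron markers 1 fell, Gabra6, at -0.46 ± 0.06 (limma adjusted p = 0.0165), and neither of 2 erythroid markers passed. The call of Gfap was lost on leaving out any array other than mutant replicate 2, and that of Gabra6 on leaving out any array other than wild-type replicate 1.

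The profiles most like those of the members were sought among 14846 other genes, as the smallest root mean square difference over the 6 arrays after each gene's own wild-type mean was subtracted. For Fcrls they were the complement gene C1qb (0.05, log2), the lysosomal gene Cd68 (0.05) and Ly86 (0.08). For Fcer1g they were Laptm5 (0.11), C3ar1 (0.12) and the protease gene Ctss (0.12), and for Fcgr3 the growth factor receptor gene Csf1r (0.03), the protease gene Ctsz (0.04) and Olfml3 (0.04). Genes chosen in this way share the members' difference between genotypes by construction. For Fcgr1 they were Cbfb (0.03), Noxo1 (0.03) and Asap3 (0.03).

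Fcgr2b, Fcgr4, Fcgr3 and Fcer1g lie in this order on chromosome 1 in RefSeq, within a run of 42 annotated genes. Of the genes in that run, 7 besides the members had a gene-level row. None passed, with changes from -0.17 in Pcp4l1 to 0.13 in Fcgr4. Fcrls and Fcgr1 are both on chromosome 3.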

How the data were processed

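Values were the authors' deposited log2 gene-level and exon-level tables, 2 summaries of the same 6 arrays that were tested apart. Per the labels' protocols, TRIzol RNA was labelled with the GeneChip WT Terminal Labeling kit. The log base was inferred from the range of the values; how the values were background-corrected, normalized and summarised is not given in the sources used here. Per the submitters' processing notes the build was mm8. No column was left unused. Gene names came from the platform annotation, updated through RefSeq names.

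Mutant minus wild type was tested with limma 3.58.1 (two-sided, lmFit then eBayes; R 4.3.3) without covariates or filters, Benjamini-Hochberg adjustment over each whole table and a threshold of 0.05. The splicing index was tested in genes with at least 3 probe sets. A gene with several rows was read from its brightest. Pairs of genes were compared by exact permutation (scipy 1.17.1). The series text calls the mice biological replicates.

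The members and gene lists were chosen with earlier results of these data known. Named were every member, its probe sets with the largest and smallest change and the smallest p, up to 4 genes per list by p, the 3 most like genes, and Fcgr4 and Tyrobp. Probe sets 4408866 and 4896021, Pcp4l1 and the microglia markers P2ry12, Siglech, Tmem119 and Sall1 were named after their values were seen. Scripts were tested on simulated data. Alternatives were a replicate block, a filter on low values, trend and robust eBayes, quantile normalization, median centring, array weights, a threshold of 0.1, each array left out, other gene levels for the index, and diffSplice.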

Additional observations from a re-analysis of the deposited data

How the results depend on the processing

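All 4 gene-level changes kept their direction under every alternative run: 0.10 to 0.18 for Fcgr1, 0.53 to 0.79 for Fcgr3, 0.88 to 1.32 for Fcer1g and 1.33 to 1.76 for Fcrls (log2). Fcgr1 passed under none of them, with adjusted p-values from 0.197 to 0.460. Of the 4 Fc receptor rows 2 passed as reported, 1 of 1 above the filter on low values, which removed the other 3, 1 after median centring, and 0 to 2 with an array left out; without an array the fit has fewer samples. Of the 52 probe sets 7 passed as reported, 25 with trend and robust settings, 4 with array weights, 17 at an adjusted p under 0.1 and 0 with any array left out. Of the 97 signalling genes 3 passed as reported, 7 with trend and robust settings and 10 at an adjusted p under 0.1. With an array left out 0 to 1 passed. Of all 23332 gene-level rows 920 rose and 422 fell as reported, and 1467 and 682 with trend and robust settings. At an adjusted p under 0.1, 2788 of them passed. With an array left out, 50 to 356 of them rose and 26 to 140 fell. The splicing index gave 0 calls under each alternative; no member passed the stricter filter on low probe sets and low genes, so that alternative gave no value. Beyond the smaller tables and sample numbers, the cause of these shifts was not tested.

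The replicate numbers do not pair the arrays: arrays of the same number deviated together with correlations of -0.04 to 0.03. With the number as a block, 0 of the 4 rows passed, 0 of the 52 probe sets and 0 of the 97 signalling genes, as did 0 of all rows in both tables, beside 4787 gene-level rows and 34378 probe sets at an unadjusted p under 0.05. Signal over background is not part of the deposited tables, so low rows are limited by level alone.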
